A study of Mus musculus with 8 samples.

Results

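The epidermal growth factor (EGF) family ligands and the ERBB receptors were examined in mouse liver RNA as a set of 10 genes. The ligands were Nrg1, Egf, Hbegf, Areg, Ereg, Tgfa and Btc, and the receptors Egfr, Erbb2 and Erbb3. A gene was represented by the probe whose RefSeq accession carried its symbol. A gene was tested if such a probe rose well above background on 4 or more arrays out of 8, and 8 of the 10 genes, among 24924 genes or transcripts in all, met this condition. The set was chosen because Nrg1 was much higher after furan, so the furan values of its members are given here as a description, without p-values. The mice were B6C3F1 females, a hybrid of the C57BL/6 and C3H strains, bought at 5 to 6 weeks of age and acclimatized for at least 7 days. Each of 4 vehicle animals, replicates 2, 3, 4 and 6, received corn oil by gavage. Each of 4 furan animals, replicates 41, 42, 43 and 44, received furan in corn oil at 8 mg per kg body weight. All 8 animals were dosed on 21 days over 3 weeks, and liver was collected 4 hours after the last dose. Furan, a volatile compound that forms in heated food, damages the liver of rodents and causes liver tumours in them.

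ERBB receptors are tyrosine kinases that dimerize when a ligand of the EGF family binds. The ligands are made as membrane proteins that proteases release, and the bound receptors signal through the RAS and MAP kinase chain and through PI3 kinase. Egfr binds Egf, Tgfa, Areg, Hbegf, Btc and Ereg, Erbb3 binds the neuregulins such as Nrg1 and has little kinase activity of its own, and Erbb2 binds no known ligand and acts as a partner of the others. In the liver Egfr is abundant in hepatocytes and takes part in regeneration after injury.

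Sequences upstream of the transcript start are shown for a receptor and a ligand of it that differed in detection, Egfr, well above background on all 8 arrays, and Areg, well above background on 2. Each is the 250 bases before the start, 5′ to 3′ on the strand of the gene, from RefSeq with build GRCm38.p6. Capitals mark matches to TATAAA or GGGCGG on either strand or to the palindrome TGACGTCA, the full cyclic AMP response element. TGANTCA, the AP-1 element, was also searched, and no letter run can match both it and TGACGTCA.
Egfr, chr11:16751953-16752202, plus strand: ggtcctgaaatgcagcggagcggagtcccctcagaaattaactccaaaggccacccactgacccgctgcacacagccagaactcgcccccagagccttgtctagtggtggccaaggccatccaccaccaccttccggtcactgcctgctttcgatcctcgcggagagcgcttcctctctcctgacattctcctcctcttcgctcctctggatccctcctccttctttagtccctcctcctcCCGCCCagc
Areg, chr5:91139349-91139598, plus strand: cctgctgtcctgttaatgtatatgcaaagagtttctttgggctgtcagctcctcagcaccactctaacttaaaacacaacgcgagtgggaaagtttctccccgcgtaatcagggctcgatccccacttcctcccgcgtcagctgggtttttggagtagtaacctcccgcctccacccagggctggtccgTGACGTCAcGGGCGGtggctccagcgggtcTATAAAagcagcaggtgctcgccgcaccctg
The Areg window held 1 TATAAA, 1 GGGCGG and 1 TGACGTCA, and 57.2% of its bases were G or C. The Egfr window held 1 GGGCGG on the opposite strand and none of the other 3 letter runs, with 60.8% G or C. Among 32851 RefSeq promoter windows of this length, 12.4% held TATAAA, 32.7% GGGCGG, 6.75% TGANTCA and 1.55% TGACGTCA, and the median share of G and C was 52.4%. These matches describe the letters and are not measured binding sites.

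Each level below is a log2 signal set against the 75th percentile of its array, and each difference is furan minus vehicle on that scale. All 8 arrays lay on 1 slide, in 2 rows and 4 columns, and each column held 1 vehicle and 1 furan array. Vehicle replicate 2 stood apart, with 86.2% of its 59305 probe spots well above background against 55.1% to 69.4% on the other 7 arrays. It was the highest of the 8 arrays for 71.5% of the 8352 features with a mean level under -2, and for 3.23% of the 11021 features with a mean level over 0. Across all 24924 features the median difference was -0.09, and it was 0.42 when arrays were scaled to their median instead. Of 13 hepatocyte markers, all 13 were tested and 0 passed the threshold, an adjusted p under 0.05 in limma with Benjamini-Hochberg adjustment. Their summed signal, as a log2 value, was 12.62 to 13.03 on the vehicle arrays and 12.68 to 12.87 on the furan arrays. In bulk RNA, fewer cells of a type and less RNA per cell cannot be told apart.

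Nrg1, a neuregulin that signals through Erbb3 and Erbb4, was the member with the largest difference. On the vehicle arrays its level was -1.39, -2.83, -2.37 and -2.44 in replicates 2, 3, 4 and 6. On the furan arrays it was 0.76, -0.02, 1.22 and 0.39 in replicates 41, 42, 43 and 44. The groups did not overlap, and the gap between the lowest furan array and the highest vehicle array was 1.37. The highest vehicle value belonged to replicate 2, the array on which most dim features were highest. The means were -2.26 ± 0.61 (SD, n = 4) and 0.59 ± 0.53, which gave a difference of 2.84 ± 0.36 (SE), or 7.18-fold. Ranked by difference, Nrg1 was number 8 of 24924 from the top.

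The Nrg1 difference was present in every slide position that could be compared. Within slide columns 1 to 4 it was 2.42, 4.05, 2.15 and 2.76, and within the 2 rows it was 2.72 and 2.97. Leaving out 1 array at a time gave 2.63 to 3.13, the highest of these without vehicle replicate 2. Its size varied with the processing. The fold ran from 4.47 to 10.2 over 21 fits, 8 of them with 1 array left out, and its rank from 7 to 13. The fold was lowest after normexp background correction with quantile normalization and highest with a median shift. Set against the median of all features, the difference was 2.94 both on the main scale and with a median shift. The authors' deposited table gave 2.24. Nrg1 had 1 probe, so no second probe bears on the value, and the isoform it reads was not examined.

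**Figure D1:**
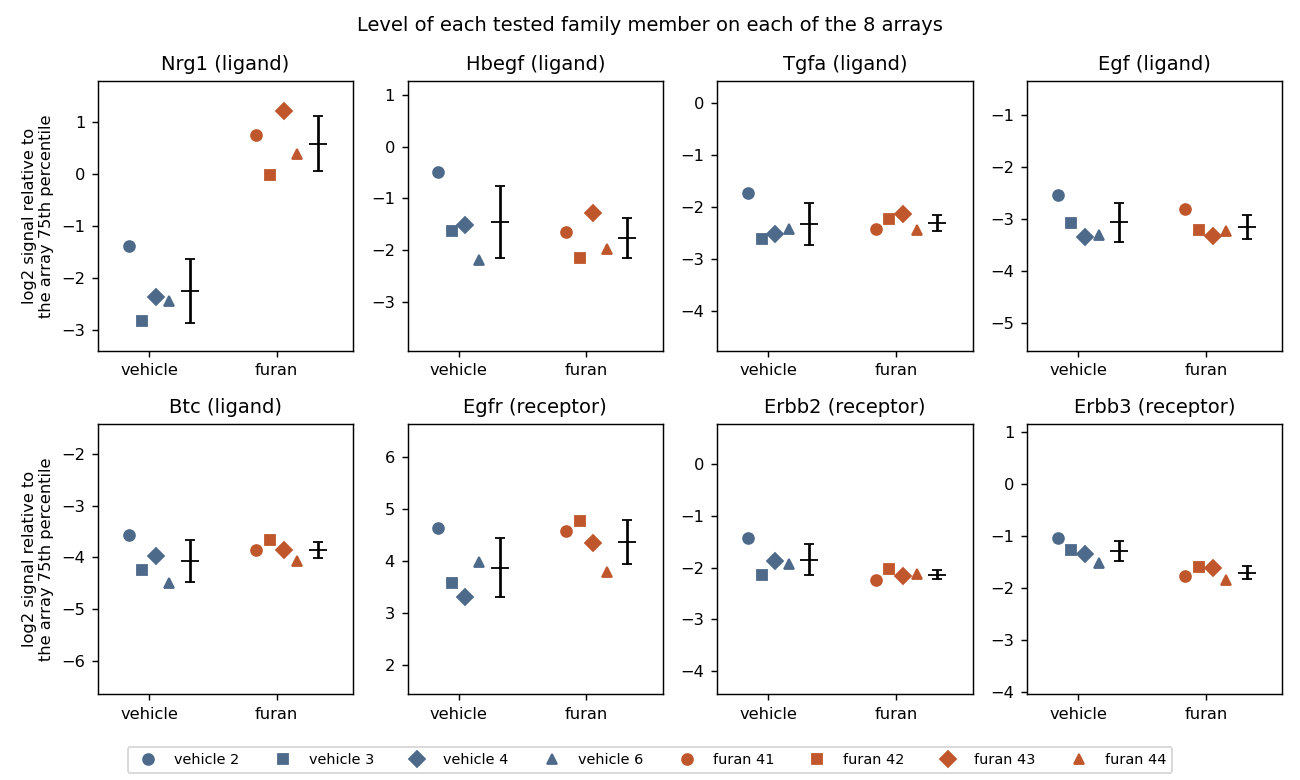
Each panel plots 1 family member, with the log2 signal relative to the array 75th percentile on the vertical axis and the 4 vehicle and 4 furan arrays as single points; bars are group means ± SD, and every panel spans the same number of log2 units. The Nrg1 groups are separated by 1.37, the Erbb3 groups by 0.08, and the other 6 members overlap, with vehicle replicate 2 the highest of the 8 points in 6 of the 8 panels.

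Of the ligands of Egfr, 4 were tested, and their groups overlapped. Hbegf, the heparin-binding ligand, had levels of -0.49, -1.64, -1.51 and -2.18 on the vehicle arrays and -1.64, -2.15, -1.28 and -1.98 on the furan arrays. Vehicle replicate 2 was the highest of the 8, and the other 7 arrays were interleaved. The difference was -0.31 ± 0.36 (SE), it was 0.01 without vehicle replicate 2, and it was 0.20 with a median shift. The vehicle values of Hbegf had the widest spread of the 4 ligands, with an SD of 0.70.

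Tgfa, transforming growth factor alpha, a ligand that hepatocytes make in regeneration, had levels of -1.73, -2.61, -2.52 and -2.43 on the vehicle arrays. On the furan arrays they were -2.42, -2.23, -2.13 and -2.45. Apart from vehicle replicate 2, all 7 arrays lay between -2.61 and -2.13. The difference was 0.02 ± 0.20 (SE), and 0.21 without that array.

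Egf, the ligand that names the family, was dim, with levels of -2.53, -3.07, -3.34 and -3.31 on the vehicle arrays and -2.81, -3.22, -3.33 and -3.23 on the furan arrays. The groups lay within each other, and the difference of -0.08 ± 0.20 (SE) turned to 0.10 without vehicle replicate 2 and to 0.43 with a median shift. Btc, betacellulin, was well above background on 3 vehicle and 4 furan arrays. Its levels were -3.56, -4.24, -3.97 and -4.50 on the vehicle arrays and -3.85, -3.67, -3.86 and -4.06 on the furan arrays. The furan arrays lay inside the vehicle range, with a difference of 0.21 ± 0.20 (SE). Its difference was 0.38 without vehicle replicate 2 and 0.98 with quantile normalization.

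Areg, amphiregulin, and Ereg, epiregulin, did not reach the condition for testing. Areg was well above background on 1 vehicle and 1 furan array. Ereg was well above background on vehicle replicate 2 alone. Btc, on 7 arrays, and Areg, on 2, were the members nearest to the threshold of 4 arrays on either side, and no furan difference is given for Areg or Ereg.

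Egfr, the receptor of the EGF, Tgfa and Areg group of ligands, had 3 probes in 2 sets annotated to different RefSeq transcripts. The tested probe was annotated to variant 1, which encodes the full-length membrane receptor. The other 2 probes were annotated to variant 2, which encodes a shorter form without the kinase part. Whether each probe reads only its own variant was not examined, and the probes are named by annotation below. The variant 1 probe had levels of 4.63, 3.58, 3.31 and 3.97 on the vehicle arrays and 4.59, 4.77, 4.35 and 3.78 on the furan arrays. Furan replicates 41, 42 and 43 lay above vehicle replicates 3, 4 and 6, and vehicle replicate 2 lay among the furan values. The means were 3.87 ± 0.57 (SD, n = 4) and 4.37 ± 0.43, a difference of 0.50 ± 0.32 (SE), and 95.4% of all features had a smaller one. This difference did not hold across the slide: it was -0.24 within row 1 and 1.23 within row 2. It was 0.75 without vehicle replicate 2.

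The variant 2 probes moved the other way. The first had levels of 4.16, 4.17, 3.75 and 3.20 on the vehicle arrays and 2.96, 3.70, 3.73 and 3.26 on the furan arrays. Vehicle replicates 2 and 3 were the highest and furan replicate 41 the lowest, and the groups overlapped. Its difference was -0.40 ± 0.27 (SE). The second variant 2 probe followed the first to within 0.18 on each array and had a difference of -0.37 ± 0.23 (SE).

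Taken within each array, the variant 1 probe minus the mean of the variant 2 probes was 0.54, -0.50, -0.37 and 0.76 on the vehicle arrays. It was 1.66, 1.14, 0.67 and 0.50 on the furan arrays. The level of this quantity has no meaning of its own, since it sets different probes side by side, but its change between arrays does not depend on the scaling by the 75th percentile. The groups overlapped, with means of 0.11 ± 0.63 (SD, n = 4) and 0.99 ± 0.52, a change of 0.88. The change was 0.38, 1.17, 1.12 and 0.87 within slide columns 1 to 4, no less than 0.66 with 1 array left out (furan replicate 41), and 0.85 in the authors' deposited table. It did not hold across the slide rows. In row 1 the groups overlapped, with vehicle replicates 2 and 6 at 0.54 and 0.76 and furan replicates 43 and 44 at 0.67 and 0.50. In row 2 vehicle replicates 3 and 4 were at -0.50 and -0.37, and furan replicates 41 and 42 at 1.66 and 1.14. Of 3752 genes with at least 2 kept probes, the median gap between the highest and lowest difference of its probes was 0.19, the gap of Egfr was 0.90, and 5.17% of these genes had one at least that wide.

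**Figure D2:**
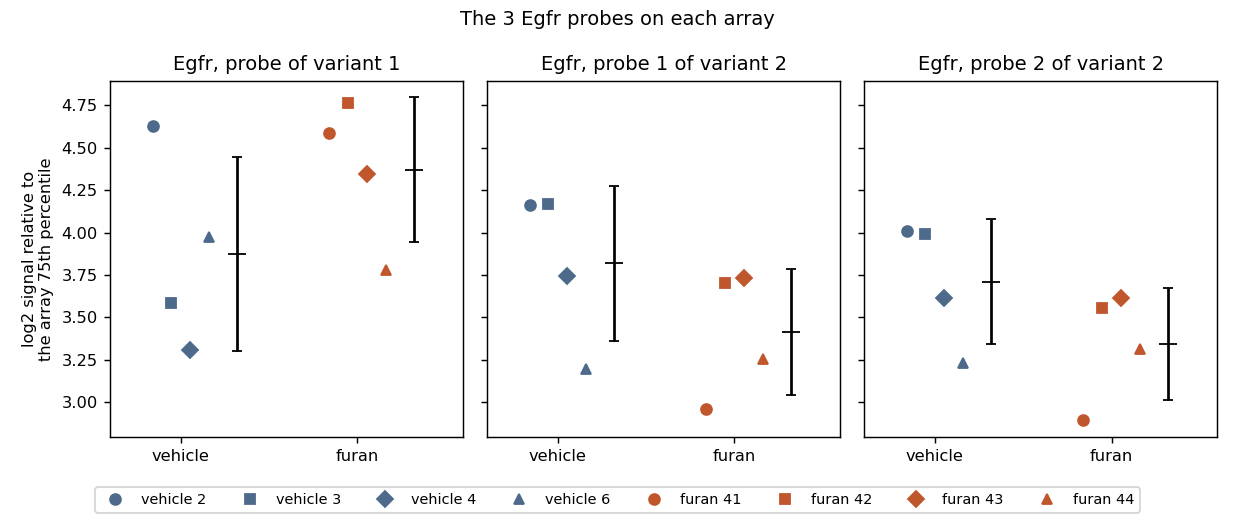
The 3 panels plot the 3 Egfr probes, with the log2 signal relative to the array 75th percentile on a shared vertical axis and 1 point for each array; bars are group means ± SD of 4 arrays. The probe of variant 1 has a mean of 3.87 in the vehicle group and 4.37 in the furan group, while both probes of variant 2 have lower furan means, by 0.40 and 0.37, and all panels show overlap between the groups.

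Erbb2, the receptor that acts as a partner without a ligand, had levels of -1.44, -2.14, -1.87 and -1.93 on the vehicle arrays. On the furan arrays they were -2.24, -2.03, -2.16 and -2.13. The furan arrays lay close together, with an SD of 0.08, and vehicle replicate 3 fell among them. The difference was -0.29 ± 0.15 (SE) and -0.16 without vehicle replicate 2. It was 0.05 with quantile normalization and -0.02 in the authors' deposited table, so its direction depended on the scaling.

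Erbb3, the receptor of Nrg1, was lower on all 4 furan arrays than on any vehicle array, by a narrow gap of 0.08. Its levels were -1.03, -1.27, -1.34 and -1.52 on the vehicle arrays and -1.77, -1.59, -1.62 and -1.85 on the furan arrays. The means were -1.29 ± 0.20 (SD, n = 4) and -1.71 ± 0.12, a difference of -0.42 ± 0.12 (SE) that did not pass the threshold. Of all features, 21.2% had a difference lower than this one. It was negative in all 4 slide columns, at -0.08, -0.35, -0.74 and -0.51, and -0.50 to -0.33 with 1 array left out. The direction flipped with a median shift, to 0.09. Relative to the median of all features the Erbb3 difference was -0.33. That value is the same under either scaling by construction, since each scaling moves all features of an array by 1 amount. The other ways of processing can change it. For the Erbb3 difference itself, quantile normalization gave -0.18, normexp -0.14 and the authors' deposited table -0.18.

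Counted together, 1 of the 8 tested members, Nrg1, passed the threshold upward, and 0 passed downward. Among all features 2.86% passed upward and 1.31% downward. Nrg1 was also the 1 member with no overlap upward and Erbb3 the 1 with no overlap downward, where 10.8% of all features did not overlap upward and 7.36% downward, 18.1% in either direction. With the slide column as a block, limma called 0 features, Nrg1 among those not called. Since the set was chosen on this comparison, nothing is read from these counts. The difference was positive for 4 members and negative for 4, the median was -0.03 against -0.09 over all features, and 7 of the 8 lay within 1 log2 unit of 0. With a median shift the 8 differences were all above 0, Erbb3 the least, at 0.09, which sits below the shift of 0.42 of the median feature.

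**Figure D3:**
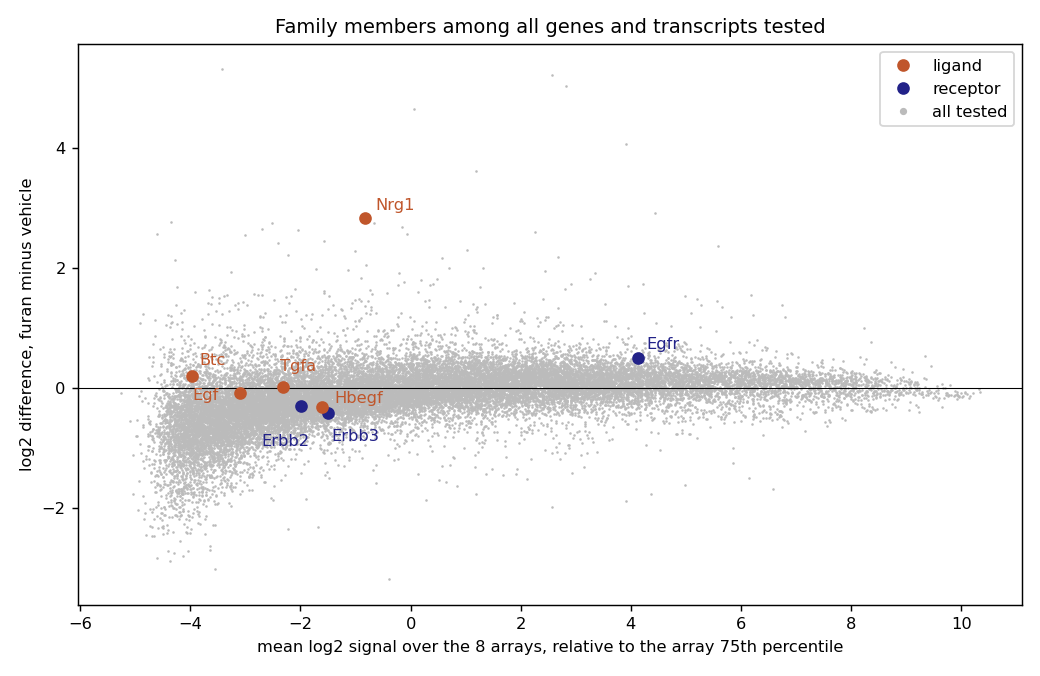
Each grey point is 1 of 24924 genes or transcripts, with its mean log2 signal over the 8 arrays relative to the array 75th percentile on the horizontal axis and its log2 difference, furan minus vehicle, on the vertical axis; coloured points are the 8 tested family members. Nrg1 sits at 2.84, apart from the cloud, Egfr at 0.50 near its upper edge, and the other members lie inside it, in the dim range where the median feature is below 0.

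Of the 5 other genes of the family, 4 were not tested: Epgn, Nrg2, Nrg3 and Erbb4. Erbb4, the other neuregulin receptor, was well above background on 1 array, vehicle replicate 2. Nrg4, a neuregulin that binds Erbb4, was the 1 tested, and it was well above background on all 8 arrays. Its levels were 0.18, 1.25, 1.06 and 2.52 on the vehicle arrays and 1.52, 1.25, 1.54 and 1.27 on the furan arrays. The furan arrays were close together inside a vehicle range of more than 2 log2 units, set by replicates 2 and 6. The difference was 0.14 ± 0.43 (SE; limma with Benjamini-Hochberg adjustment, adjusted p = 0.845), and without vehicle replicate 2 it was -0.22.

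Genes that act before and after the receptors were taken from 6 lists with the members left out, together with Nrg4. Of 117 tested, 9 rose and 0 fell, which is 7.69% against 4.18% of all features. The median difference of the 117 was 0.11, against -0.09 over all features. No overlap upward was seen for 21 of them and no overlap downward for 0, where 10.8% and 7.36% of all features did not overlap. The median over all features rose with brightness, from -0.42 at mean levels under -2 to 0.08 at mean levels over 0. The 117 were not matched to all features in brightness, so these gaps are a description. With the slide column as a block, limma called 0 of the 9, with adjusted p between 0.0959 for Jun and 0.182 for Rab11a. The median shift called 3 of the 117, and Rhbdf2, Pik3r3, Spred1, Rab11a, Fosl2 and Jund did not pass under it. With 1 array left out, between 3 and 8 of the 117 passed: 3 without vehicle replicate 6 or furan replicate 41, 42 or 43, 4 without vehicle replicate 3 or furan replicate 44, 6 without vehicle replicate 4 and 8 without vehicle replicate 2.

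Of 15 genes of ligand shedding and trafficking, 1 rose and 0 fell, with a median of 0.06. The gene that rose was Rhbdf2, an inactive rhomboid protein that carries the sheddase Adam17 to the cell surface. Its levels were -0.49, -0.22, 0.13 and -0.28 on the vehicle arrays and 0.55, 0.61, 0.50 and 0.61 on the furan arrays. All 4 furan arrays were above the vehicle arrays, by a difference of 0.78 ± 0.13 (SE; limma with Benjamini-Hochberg adjustment, adjusted p = 0.0239). With 1 array left out the call held only without vehicle replicate 2 or 4, and the adjusted p reached 0.0723. Adam17 itself, the main sheddase of Egfr ligands, had a difference of -0.16 ± 0.15 (SE) with overlapping groups.

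Of 21 adaptors and kinases of the RAS and MAP kinase chain, such as Grb2 and Shc1, 0 passed in either direction, with a median of 0.11. Of 19 genes of the PI3 kinase, phospholipase C gamma, SRC and STAT branches, 1 rose and 0 fell, with a median of 0.01. It was Pik3r3, a regulatory subunit of PI3 kinase. Its levels were -1.19, -1.66, -2.20 and -1.59 on the vehicle arrays and -0.56, -0.73, -0.68 and -0.67 on the furan arrays. The groups did not overlap, and the difference was 1.00 ± 0.20 (SE; limma, adjusted p = 0.0354). The call held only without vehicle replicate 2 or 4 when 1 array was left out, and the adjusted p reached 0.103.

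Of 20 tested genes that restrain the pathway, 2 rose and 0 fell, with a median of 0.16, and Spry4, Spred3 and Dusp5 were not tested. Dusp6, the phosphatase that switches off ERK, rose by 1.70 ± 0.24 (SE; limma, adjusted p = 0.0150), from levels between 2.57 and 3.71 to levels between 4.54 and 5.07. With 1 array left out it did not pass without vehicle replicate 6 or furan replicate 41, 42 or 43, where the adjusted p reached 0.0540. Spred1, an inhibitor of signalling from RAS to the MAP kinases, had levels of -1.19, -1.24, -1.37 and -1.18 on the vehicle arrays and -0.75, -0.52, -0.63 and -0.87 on the furan arrays. The groups did not overlap, and the difference was 0.55 ± 0.10 (SE; limma, adjusted p = 0.0302). When 1 array was left out that call held only without vehicle replicate 2, and the adjusted p reached 0.0935. It was lost with quantile normalization (limma, adjusted p = 0.0665) and with normexp (0.0504). The receptor-level inhibitor Errfi1, which binds the Egfr kinase, had a difference of -0.21 ± 0.34 (SE) with overlapping groups.

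Of 20 genes of receptor ubiquitination and endocytic sorting, 1 rose and 0 fell, with a median of 0.11. Rab11a, a GTPase of the recycling endosome, had levels between 2.03 and 2.26 on the vehicle arrays and between 2.52 and 2.69 on the furan arrays. The difference was 0.41 ± 0.09 (SE; limma, adjusted p = 0.0463), and the call was lost without any 1 of the 8 arrays, with an adjusted p up to 0.130. It was also lost with quantile normalization (limma, adjusted p = 0.0518) and with normexp (0.0582). The ubiquitin ligases Cbl and Cblb, which mark activated Egfr for breakdown, had differences of 0.18 ± 0.34 and -0.15 ± 0.14 (SE), and neither passed.

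Of 21 tested genes that growth factors induce through transcription, 4 rose and 0 fell, with a median of 0.46, and Fos and Egr3 were not tested. They were Jun, Jund and Fosl2, subunits of AP-1, and Atf3, a stress-induced factor that pairs with Jun. These genes respond to many stimuli besides ERBB receptors. Jund had levels of 3.49, 3.85, 3.88 and 3.58 on the vehicle arrays and 4.57, 4.55, 4.34 and 4.20 on the furan arrays, a difference of 0.72 ± 0.13 (SE; limma, adjusted p = 0.0298). The groups did not overlap, and the call held only without vehicle replicate 2, the adjusted p reaching 0.0893. Jun and Atf3, at differences of 2.19 and 2.69, passed without any 1 array. So did Fosl2 at 1.18, but its other kept probe gave -1.21, and the mean of its probes was -0.015. Fosl2 did not pass with quantile normalization (limma, adjusted p = 0.0755).

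**Figure D4:**
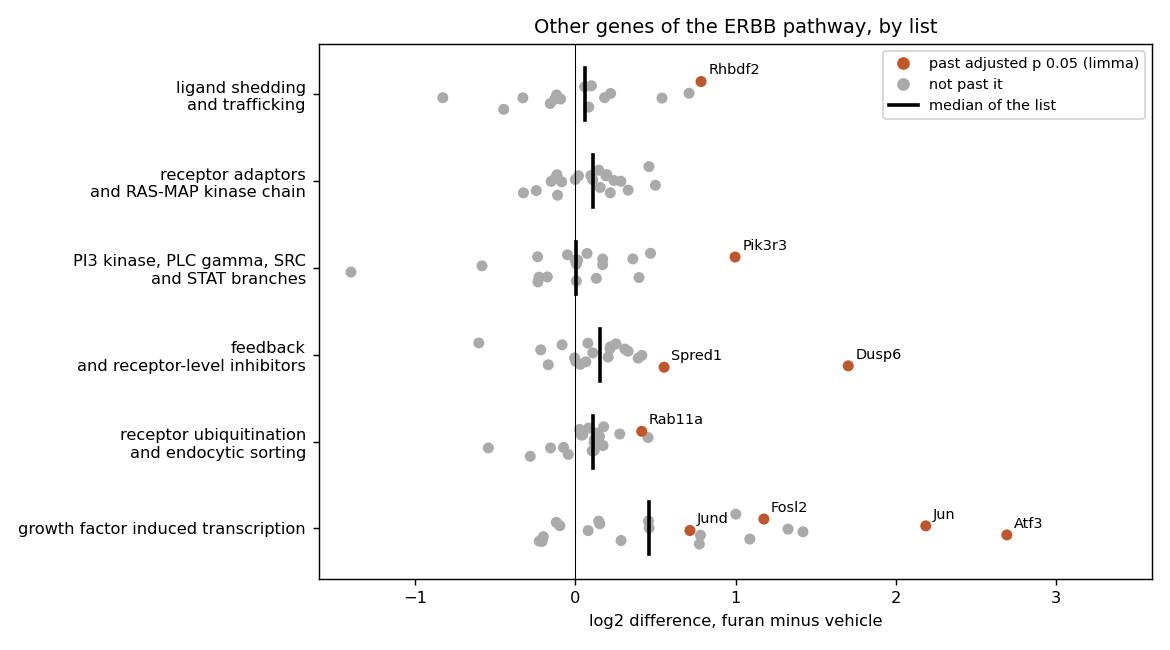
Each point is 1 gene of the list named at the left, placed by its log2 difference, furan minus vehicle, on the horizontal axis, with vertical offsets for legibility; orange points passed an adjusted p of 0.05 in limma and black bars are the list medians. The 9 orange points all lie above 0, 4 of them in the transcription list, whose median of 0.46 is the furthest right.

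Among 15031 genes with a symbol and values on all 8 arrays, the 5 with levels most like those of Nrg1 were Hddc2, Adam32, Zfp750, Plk2 and Xpo4. Pearson's r was 0.993, 0.982, 0.981, 0.980 and 0.979 over the 8 arrays. These are the same arrays and the same 2 groups for every gene, so a gene that differs between the groups gains from that alone, and the values are a description. Adam32 belongs to the ADAM family of membrane proteins, Plk2 is a stress-induced polo-like kinase, and Xpo4 is a nuclear export receptor. Their differences were 0.49 for Hddc2, 1.49 for Adam32, 0.68 for Zfp750, 1.01 for Plk2 and 0.56 for Xpo4, each smaller than that of Nrg1.

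The 3 genes with the most opposite levels were Scnn1a, the alpha subunit of the epithelial sodium channel, Ugt2a3, a glucuronosyltransferase, and Tle2, a corepressor. Their r with Nrg1 was -0.993, -0.991 and -0.990. Scnn1a went from 2.94, 3.28, 3.15 and 3.21 on the vehicle arrays to 2.26, 2.33, 2.04 and 2.29 on the furan arrays. Furan replicate 43, the highest array for Nrg1, was the lowest for Scnn1a, Ugt2a3 and Tle2. Within the family, r with Nrg1 was -0.69 for Erbb3, 0.59 for Egfr, 0.50 for Btc, -0.42 for Erbb2, 0.28 for Tgfa, 0.03 for Egf and -0.01 for Hbegf. Without vehicle replicate 2, over 7 arrays, it was -0.83 for Erbb3, 0.70 for Egfr, 0.69 for Btc, -0.64 for Erbb2, 0.74 for Tgfa, 0.23 for Egf and 0.18 for Hbegf. Taken within the groups, about each group mean, r over all 8 arrays had the opposite sign for both lower receptors, 0.46 for Erbb3 and 0.60 for Erbb2. Vehicle replicate 2 was the highest vehicle array for Nrg1, Erbb2 and Erbb3 alike, and it weighs on these values. They were not computed without it, so nothing is read from their sign.

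**Figure D5:**
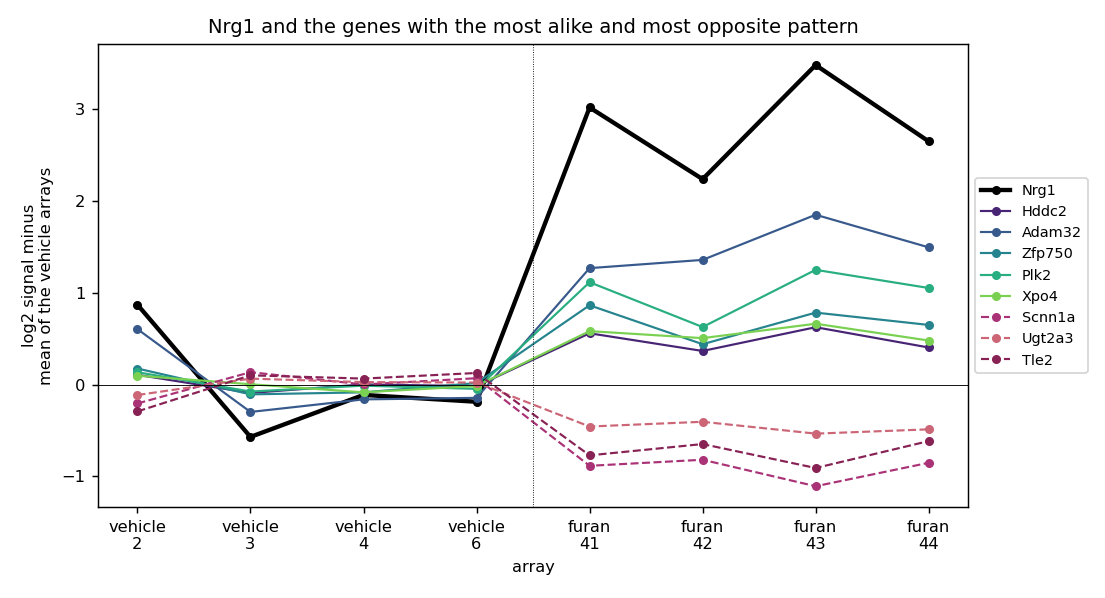
Lines join the 8 arrays on the horizontal axis, and the vertical axis is the log2 signal minus the mean of the 4 vehicle arrays of the same gene; solid lines are Nrg1 and the 5 genes most like it and dashed lines the 3 most opposite. Nrg1 spans the widest range, and the furan arrays of all 8 other genes keep to the side of 0 that their r with Nrg1 gives.

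Markers of other cell types of the liver and of tissue beside it were read in the same fit. Of 7 tested markers of Schwann cells and nerve, where Nrg1 acts on myelination, 0 passed, and the log2 of their summed signal was 1.53 to 2.01 on the vehicle arrays and 1.65 to 1.97 on the furan arrays. Cdh19 and Nefl were not tested. Of 12 endothelial markers 0 passed, with a summed level of 6.82 to 7.05 on the vehicle arrays and 6.56 to 6.82 on the furan arrays. Of 10 tested bile duct markers 1 rose, Prom1 (limma with Benjamini-Hochberg adjustment, adjusted p = 0.0124), and the summed level was 2.56 to 3.10 against 2.98 to 3.35, with Cftr not tested. That sum leans on Prom1, the brightest of them, with means of 1.43 (vehicle) and 2.58 (furan). The next brightest, Spp1, had 0.23 and 0.10. Krt19 and Sox9, defining markers of bile duct cells, had differences of 0.20 ± 0.18 and 0.25 ± 0.15 (SE) and did not pass.

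Stellate cell and fibroblast markers gave 0 calls of 12, with summed levels of 6.67 to 7.10 and 6.86 to 7.01. That sum mostly reads Dcn, with means of 6.53 (vehicle) and 6.61 (furan), since the next brightest, Col1a2, had 3.23 and 3.44. The median difference of the 12 was 0.15, against -0.09 over all features. Macrophage markers gave 0 of 12, with 7.18 to 8.46 and 7.38 to 7.75. Lymphocyte markers gave 0 of 10, neutrophil markers 0 of 5 and mesothelial markers 0 of 4. Of 6 tested exocrine pancreas markers 0 passed. The log2 of their summed signal was 3.59 to 3.95 on the vehicle arrays and 3.06 to 3.54 on the furan arrays, without overlap. Of single features, 7.36% did not overlap downward. The sum mostly reads Amy2a5, with means of 3.48 (vehicle) and 2.99 (furan), since the next brightest, Ctrb1, had 0.25 and -0.22. Cela1 was higher on the furan arrays, by 0.44 ± 0.32 (SE), and the other tested markers were lower. Cpa1, Cpb1, Pnlip and Prss2 of that list were not tested. The part of these cell types in the values of Nrg1 and Erbb3 was not tested.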

How the data were processed

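Liver RNA of 8 mice, 4 vehicle and 4 furan, was measured on 1-colour Agilent arrays of design 028005. Per the file headers, the deposited scanner files hold spot intensity from Agilent Feature Extraction 11.0.1.1, with background already subtracted and trends removed. The authors' deposited value table is in log2 units, by a method not given in the sources used here. The columns of the table followed the log2 median spot intensity, with r across probes of 0.998 for vehicle replicate 2 and 1.00 for the others. The medians of its columns were 6.53 to 6.74, and its centring is unknown.

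Each array held 62976 spots, and 3671 controls and 128 to 315 outlier spots were left out. The log2 processed intensity was set relative to the 75th percentile of the array, spots of 1 probe were averaged, and 33847 of 55681 probes were well above background on at least 4 of 8 arrays. The kept probe with the highest mean stood for its gene. Symbols came from RefSeq accessions through a table for GRCm38.p6, 27235 of 28685 matching. The array annotation uses another build, so no probe positions are given.

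The comparison used limma 3.58.1 (lmFit, then eBayes) under R 4.3.3. P-values were 2-sided and adjusted by Benjamini-Hochberg over the 24924 features, with a threshold of 0.05. The labels name a block design but give no block for any animal, so none entered this fit, and they call the animals biological replicates. The fit was tested on simulated data. The members, lists and alternatives were chosen with earlier results of these data known. Named genes were the members, the other family genes, up to 4 genes past the threshold from each list, and the genes most and least like Nrg1. Adam17, Errfi1, Cbl, Cblb, Grb2, Shc1, Krt19, Sox9 and those in the last part were named after their values were seen.

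Results were recomputed with a median shift, quantile normalization, normexp with an offset of 50 on the median spot signal followed by quantile normalization, outlier spots kept, the authors' table, a filter on all 8 arrays or none, the mean of a gene's probes, a trended robust eBayes, weights for arrays, a block for slide row or for slide column, leaving out each array, and an adjusted p under 0.01. The number of arrays limits the precision. Tables and plots were made under Python 3.11.15 by pandas 2.3.3, numpy 2.4.6 and matplotlib 3.10.9.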

Additional observations from a re-analysis of the deposited data

Results flagged for a closer look

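Atf3 on the array of vehicle replicate 4 lay far from the rest of its group. Its level there was -0.69, and the nearest vehicle array stood at -1.68. That gap was 0.842 of the range of the 4 vehicle arrays, above the 95% critical value of the Dixon test for 4 values. Without this array the difference of Atf3 was 2.96 in place of 2.69. It was the 1 group to pass that value among 36 examined, and chance alone passes about 1 group in 20.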

How the results depend on the processing

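The count of members past the threshold was 1, and it was 0 with the slide column as a block and at an adjusted p under 0.01, and 1 in each of the 8 fits that left out 1 array. The 9 pathway genes became 3 with a median shift, 16 in the authors' table, 4 without the filter, 16 with the filter on all 8 arrays, 15 with eBayes trend and robust, 0 with the column block and 3 at an adjusted p under 0.01, and 3 to 8 with 1 array left out. The 1041 features past the threshold, 714 of them higher, became 78 (77 higher) with a median shift, 1669 (1109 higher) in the authors' table, 163 without the filter, 1740 with the filter on all 8 arrays, 2000 with trend and robust, 2047 with array weights, 0 with the column block, where 4723 had an unadjusted p under 0.05, and 101 at an adjusted p under 0.01, and 195 to 928 with 1 array left out. Quantile normalization gave 899, of which 560 were higher. Nrg4 turned to -0.33 with array weights and ran from -0.22, without vehicle replicate 2, to 0.56, without vehicle replicate 6, and Fosl2 turned to -0.015 with the mean of its probes. The cause of these changes was not tested, except that a fit with 1 array fewer has fewer samples. No paired analysis was possible by replicate number, because the groups share no replicate numbers. The slide column, which holds 1 array of each group, was fitted as a block with the counts of 0 above. Dim signal limits Egf, Btc, Areg and Ereg, and 4 arrays a group limit every value.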

Other observations

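Some genes that act on the release of EGF family ligands were higher on all furan arrays without passing the threshold, and are named here after their values were seen. Of the 15 genes of that list 3 did not overlap upward, Rhbdf2 among them, and of the 21 of the RAS and MAP kinase chain 3. Among all features 10.8% did not overlap upward, so nothing is read from these counts. Rhbdf1, the paralog of Rhbdf2, had levels of 1.42, 1.70, 1.57 and 1.82 on the vehicle arrays and 2.16, 1.93, 2.33 and 2.26 on the furan arrays. Its difference was 0.54 ± 0.13 (SE; limma with Benjamini-Hochberg adjustment, adjusted p = 0.0569). Adam8, a sheddase of inflamed tissue, had levels of -2.71, -2.43, -2.05 and -2.94 on the vehicle arrays and -1.93, -1.92, -1.81 and -1.64 on the furan arrays. Its difference was 0.71 ± 0.19 (SE; limma, adjusted p = 0.0763).

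In the same way, Sos2, an exchange factor for RAS, did not overlap upward, with a difference of 0.46 ± 0.15 (SE; limma, adjusted p = 0.114). Neither did Rps6ka3, a kinase below ERK, at 0.28 ± 0.12 (SE; limma, adjusted p = 0.197). Lrig1, a membrane protein that promotes breakdown of ERBB receptors, was between 0.96 and 1.57 on the vehicle arrays and between 1.60 and 1.72 on the furan arrays, and its lowest value was that of vehicle replicate 2. Its difference was 0.31 ± 0.14 (SE; limma, adjusted p = 0.234). Stat3, a transcription factor, had a difference of 0.40 ± 0.12 (SE) and did not pass.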
